A study of Mus musculus with 3 samples.

Results

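The genes described here are 36 genes of autophagy, comprising the machinery that builds the autophagosome and the receptors that load it with cargo. They were chosen by name, and a gene counted as measured when the accession of at least 1 array probe mapped to its symbol and that probe was above background. All 36 were measured, among 13179 genes tested. The RNA came from mouse bone marrow-derived macrophages of wild-type C57BL/6J mice, grown from marrow precursors with L929-conditioned medium as the source of the growth factor CSF-1 (L929 is a fibroblast line) and then kept in low serum. Cells were given adiponectin, a hormone of fat cells, at 12 µg/ml for 18 h, or were left untreated. The labels disagree on the dose unit, since the extraction text has mg/ml where the treatment text has µg/ml. Each of 3 Agilent arrays held 1 treated and 1 untreated RNA sample in different dyes, and the arrays are numbered 1, 2 and 3 in the labels as biological replicates. The labels do not say how many mice each culture came from. Replicate 2 carried its treated RNA in Cy5 and the other arrays carried theirs in Cy3, so dye effects specific to a gene were reduced but not cancelled in the mean.

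In autophagy, a double membrane closes around part of the cytoplasm and carries it to the lysosome. A kinase complex around ULK1 starts the process, a phosphatidylinositol 3-kinase complex marks the membrane, and a ubiquitin-like conjugation system attaches proteins of the ATG8 family (the LC3 and GABARAP proteins) to the growing membrane. Cargo receptors bind ubiquitin-tagged or organelle cargo with one part of the protein and ATG8 proteins with another. In macrophages autophagy degrades bacteria, damaged mitochondria and stored lipid. Transcript levels, which were measured here, are not a measure of autophagic flux.

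Of the 36 genes, 9 passed the test with at least a 2-fold difference, 6 higher and 3 lower in treated cells, beside 6.8% higher and 12.6% lower of the 13179 genes tested. Among cargo receptor genes, Sqstm1, Optn, Nbr1 and Tax1bp1 were 1.98-fold to 2.51-fold higher in treated cells with loess normalization. Calcoco1 was 1.63-fold lower, and Bnip3l, the remaining receptor gene, did not pass. With arrays centred on their median instead (median-centred arrays), 0 genes passed the test. The means of Nbr1 and Tax1bp1 were then slightly below 0, and those of Sqstm1 and Optn fell to 0.24 and 0.32. Sqstm1, Optn, Nbr1 and Tax1bp1 were each above 0 on replicate 2 alone, the array with treated RNA in Cy5. The ATG8 lipidation system held genes that went both ways. Atg7, which encodes its activating enzyme, was 2.65-fold lower on its brightest probe, and the other probe fell less (mean log2 ratio -0.61 against -1.41). Map1lc3b, which encodes LC3B, was 2.30-fold lower, while Atg16l2 was 2.45-fold higher and Gabarapl1 2.04-fold higher. The mean of Gabarapl1 was just below 0 with median-centred arrays, though it was above 0 on replicate 2. Atg16l2 then had a mean of 0.16 and was above 0 on replicate 2 alone. Rb1cc1, a gene of the initiation kinase complex, was 2.60-fold lower on its brightest probe. Its other probe fell less (mean log2 ratio -0.19 against -1.38). Atg9a, a gene of membrane supply, was 2.34-fold higher, with a mean log2 ratio of 0.22 with median-centred arrays.

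The sequence around the transcription start is shown for 5 called members, 2 receptors and 3 genes of the lipidation system, whose windows hold a motif of a factor known to act on autophagy or stress genes. They were picked after their values were seen, and for Tax1bp1 1 of its 2 windows is shown. The Atg7 window held 42.67% G and C, against 63.33% to 68.67% in the others. Which starts these cells use was not tested. Each is a RefSeq window of build GRCm38.p6, from 250 bases before to 50 bases after an annotated start, written 5′ to 3′ on the strand of the gene. Capitals mark matches to the searched motifs.
Sqstm1 (chr11:50210771-50211070, minus strand): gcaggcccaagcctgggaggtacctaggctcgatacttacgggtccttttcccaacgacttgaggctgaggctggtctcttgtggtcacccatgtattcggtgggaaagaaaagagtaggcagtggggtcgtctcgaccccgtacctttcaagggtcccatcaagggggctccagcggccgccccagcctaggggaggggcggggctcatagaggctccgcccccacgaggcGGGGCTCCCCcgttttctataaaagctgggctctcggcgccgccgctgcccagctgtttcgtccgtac
Tax1bp1 (chr6:52713915-52714214, plus strand): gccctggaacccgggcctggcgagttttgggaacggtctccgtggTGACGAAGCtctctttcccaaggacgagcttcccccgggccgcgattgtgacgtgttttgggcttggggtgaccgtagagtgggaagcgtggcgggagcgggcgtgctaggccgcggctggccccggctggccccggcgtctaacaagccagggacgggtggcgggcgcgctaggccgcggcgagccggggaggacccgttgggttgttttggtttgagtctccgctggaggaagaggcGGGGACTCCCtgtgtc
Map1lc3b (chr8:121590188-121590487, plus strand): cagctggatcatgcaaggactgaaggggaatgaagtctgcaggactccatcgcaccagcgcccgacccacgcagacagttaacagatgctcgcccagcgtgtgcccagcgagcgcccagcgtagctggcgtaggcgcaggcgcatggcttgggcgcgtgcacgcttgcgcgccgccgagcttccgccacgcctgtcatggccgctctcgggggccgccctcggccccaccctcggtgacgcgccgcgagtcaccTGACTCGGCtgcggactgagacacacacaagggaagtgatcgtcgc
Atg7 (chr6:114670846-114671145, plus strand): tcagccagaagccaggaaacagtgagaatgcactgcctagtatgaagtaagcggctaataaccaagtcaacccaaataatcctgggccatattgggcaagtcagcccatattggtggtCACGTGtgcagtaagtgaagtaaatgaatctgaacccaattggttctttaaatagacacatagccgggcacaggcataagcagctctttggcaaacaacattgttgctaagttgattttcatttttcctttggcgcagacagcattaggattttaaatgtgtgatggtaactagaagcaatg
Atg3 (chr16:45158579-45158878, plus strand): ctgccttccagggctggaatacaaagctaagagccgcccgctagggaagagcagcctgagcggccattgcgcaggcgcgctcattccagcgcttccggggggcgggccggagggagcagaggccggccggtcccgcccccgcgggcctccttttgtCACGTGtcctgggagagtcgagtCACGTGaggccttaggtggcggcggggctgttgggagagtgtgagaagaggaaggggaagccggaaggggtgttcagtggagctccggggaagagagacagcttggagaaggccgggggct
Windows were found for 28 of the 36 genes, 33 windows in all. The motifs, searched on both strands, were the E-box CACGTG, which is the core of the site bound by the lysosome and autophagy regulator TFEB, the core TGACNNNGC of the antioxidant response element, which the stress factor NRF2 binds, the AP-1 site TGANTCA and the NF-kB consensus. No match of one motif overlapped a match of another in the windows shown. The E-box was in 4 of the 33 windows, those of Atg3, Atg5, Atg7 and Atg14, and Atg3 held 2 copies. In all 32851 RefSeq windows of this length its share was 7.15%. Of those 4 genes, Atg3 and Atg7 fell, Atg5 rose with loess but not with median-centred arrays, and Atg14 did not pass the test. The antioxidant core was in 7 of the 33 windows, from Atg13, Map1lc3b, Tax1bp1, Ulk2 and Vmp1, and in 12.4% of all windows. With loess, Tax1bp1 and Vmp1 were called higher, Map1lc3b and Ulk2 lower, and Atg13 did not pass. The NF-kB consensus was in 4 of the 33 windows, those of Atg16l2, Sqstm1, Tax1bp1 and Vmp1, and in 8.46% of all windows. These 4 genes were called higher with loess, as were 18 of the 36 members and 24.5% of all genes. Of the 4, Tax1bp1 and Vmp1 lay below 0 with median-centred arrays. TGANTCA was in 0 of the 33 windows and in 7.81% of all windows. A match describes the letters of the window and no more.

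Differences are log2 ratios of treated over untreated cells, normalized within each array by loess, given as the mean over the 3 arrays ± the moderated standard error (SE) of limma. A gene was called higher or lower when its limma p-value, after Benjamini-Hochberg adjustment across the 13179 genes, was under 0.05. Levels are log2 intensities of a probe in each channel, after loess and with the mean intensity made alike between arrays. The level of one probe cannot be set against that of another. In this bulk RNA, fewer cells of a type and less RNA per cell cannot be told apart.

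At the threshold on the adjusted p alone, 18 of the members were called higher and 14 lower, and 4 did not pass. Over all genes tested, 70.6% were called, with 24.5% higher and 46.1% lower. With each array centred on the genes tested, limma called 4638 of all genes higher and 4835 lower, a lower share of calls of 51.0% against 65.3% without that step, and 20 members higher and 13 lower. The median difference of the members was 0.25, beside a median of -0.17 over all genes. By array, the members' median was 0.38, 0.12 and 0.12 on replicates 1, 2 and 3, and that of all genes -0.16, -0.14 and -0.20. At least 2-fold differences past the test were found for 6 members upward and 3 downward, against 6.8% and 12.6% of all genes. The levels of treated and untreated cells did not overlap for 31 members, with treated cells above in 16 and below in 15. Over all genes this was so for 75.6%, with 26.8% above and 48.8% below. Ratios had one sign on all arrays for 34 members and for 82.1% of all genes, and were mixed for Atg16l1 and Gabarap. The members' ratios lay between -1.41 and 1.33, and those of all genes between -4.11 and 6.16.

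**Figure D1:**
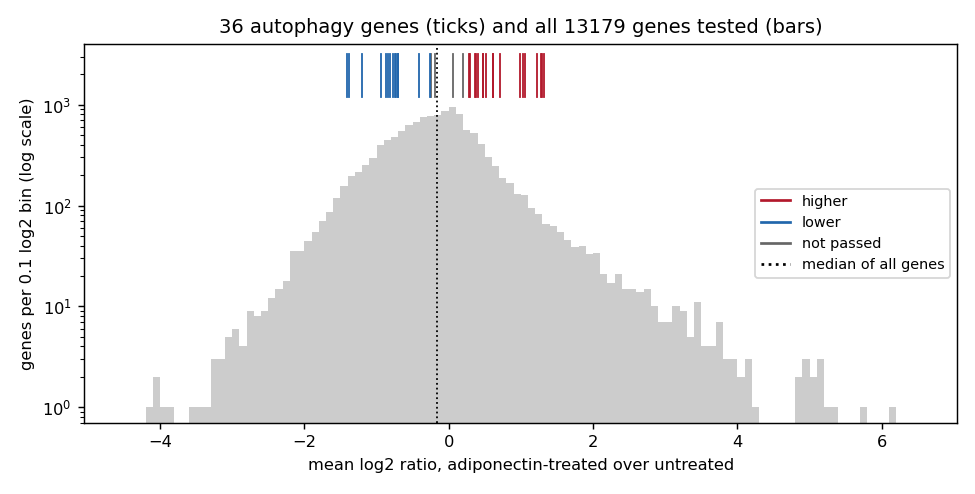
The grey bars count all 13179 genes tested by their mean log2 ratio of adiponectin-treated over untreated cells (log count axis), and each tick above them is 1 of the 36 autophagy genes, in red where called higher, blue where called lower and grey where the test was not passed. The ticks stay between -1.41 and 1.33, on both sides of the dotted median of all genes at -0.17. With median-centred arrays, 14 of the 18 red ticks would lie below 0, although on replicate 2 all 18 genes were above it.

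The normalization sets the zero of these ratios. With median centring in place of loess, each array was centred on the median of all its spots other than controls. Those spots include dim ones that the genes tested leave out. The median of all genes tested was then -1.03. Of the 18 genes called higher, 14 had a mean below 0, the exceptions being Sqstm1, Optn, Atg9a and Atg16l2. The arrays did not go the same way under that centring. Replicate 2 differed from the others and was the only array with treated RNA in Cy5. The means therefore weigh the other dye orientation more, and dye and replicate 2 cannot be told apart here. The median of all genes was -1.48, -0.06 and -1.67 on replicates 1, 2 and 3, and of the 18 genes called higher, 0, 18 and 1 were above 0, the 1 on replicate 3 being Atg9a. All 14 genes called lower were below 0 on every array, and 14 of the 36 members kept one sign. Relative to the median of all genes, the means of all 18 lay above it and those of all 14 below it, while by array this held for 18, 18 and 16 of the higher and 13, 14 and 14 of the lower genes. Values below given for median-centred arrays are means over these 3 arrays. Directions below are those with loess. Limma called 0 genes with median centring (14 members and 5314 of all genes at an unadjusted p under 0.05).

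Cargo receptors had the highest median ratio of the role groups, at 1.02, with 4 of 6 called higher, 1 lower and 1 not passed. Receptors outside the members are counted with the 18 other genes of selective autophagy below, of which 2 rose and 13 fell. Sqstm1, which encodes p62, the receptor that gathers ubiquitinated proteins and also binds the NRF2 inhibitor KEAP1, had levels of 14.76, 14.23 and 14.46 in treated cells on replicates 1, 2 and 3, against 13.08, 13.25 and 13.13 in untreated cells. All treated values exceeded all untreated ones, and the ratio was smallest on replicate 2, at 0.97 against 1.68 and 1.33 on the other arrays. The mean was 1.33 ± 0.13 (SE, n = 3 arrays; limma adjusted p = 2.56e-05), at the 95.7th percentile of all genes. Optn encodes optineurin, a receptor for bacteria and mitochondria that is activated by the kinase TBK1. It had 9.0, 9.15 and 9.06 in treated cells, against 7.86, 7.84 and 7.69 in untreated cells, with no overlap and a mean ratio of 1.27 ± 0.086 (limma adjusted p = 3.41e-06).

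Nbr1, a receptor with a domain structure like that of p62, had 9.75, 9.50 and 9.71 in treated cells, against 8.52, 8.73 and 8.52 in untreated cells. The groups were apart, with a mean ratio of 1.06 ± 0.11 (limma adjusted p = 3.36e-05). Tax1bp1, a receptor that also works with A20 in restraining NF-kB signalling, had 13.71, 13.53 and 13.77 in treated cells, against 12.68, 12.71 and 12.65 in untreated cells. These did not overlap either, and the mean ratio was 0.98 ± 0.090 (limma adjusted p = 1.95e-05). With median-centred arrays the means were 0.24 for Sqstm1, 0.32 for Optn, -0.03 for Nbr1 and -0.13 for Tax1bp1. All 4 genes were then above 0 on replicate 2 alone, with Sqstm1 at -0.13, 1.52 and -0.68 and Optn at -0.19, 1.23 and -0.08 on replicates 1, 2 and 3. Relative to the median of all genes under that centring, the 4 genes lay at 1.26, 1.35, 1.00 and 0.90, in the order Sqstm1, Optn, Nbr1 and Tax1bp1.

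The other receptor genes did not rise. Calcoco1, which encodes a receptor related to NDP52 that serves turnover of the endoplasmic reticulum, had 6.99, 6.81 and 6.88 in treated cells, against 7.53, 7.55 and 7.71 in untreated cells. All treated values were below the untreated ones, and the gene fell by 0.70 ± 0.089 on the log2 scale (limma adjusted p = 0.000139). The value was -1.14 without the normexp offset and -1.34 in the log ratio of the scanner software. With median-centred arrays it was -1.26, or -0.23 relative to the median of all genes. On replicate 1 the gene then lay above that median, at -1.35 against -1.48. Bnip3l, which encodes the mitophagy receptor NIX, had 12.58, 12.70 and 12.43 in treated cells, against 12.79, 12.79 and 12.70 in untreated cells. Its mean ratio of -0.19 ± 0.083 did not pass (limma adjusted p = 0.0674), although the levels did not overlap. The 4 probes of Bnip3l had mean ratios between -0.52 and -0.04. The mean over these probes passed at -0.20 (limma adjusted p = 0.0378), as did the brightest probe without replicate 2 at -0.24 (0.0381) and with array weights at -0.21 (0.0334). On each array, Optn exceeded Calcoco1 in ratio, by 1.68, 2.05 and 2.20 log2 units on replicates 1, 2 and 3.

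**Figure D2:**
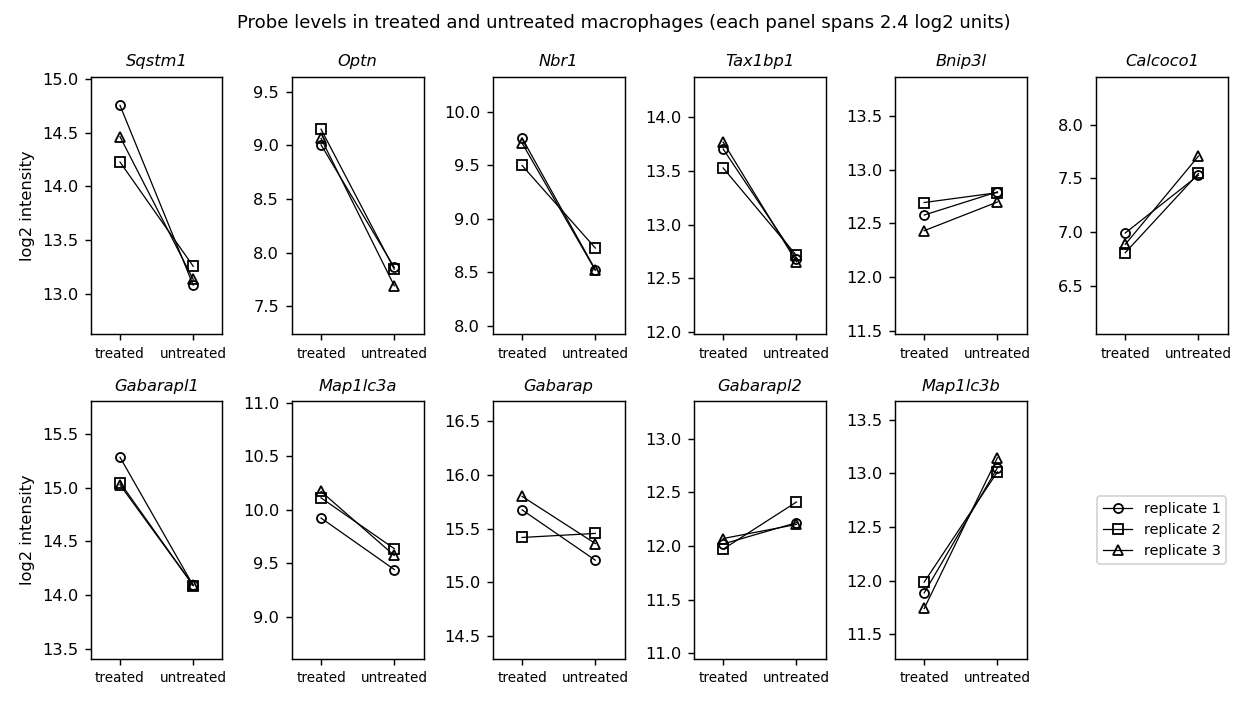
Each panel gives the log2 intensity of 1 gene's probe in treated cells (left) and untreated cells (right), with a line joining the channels of each of the 3 arrays. The upper row holds the cargo receptors and the lower row the ATG8 family, and every panel spans the same number of log2 units around its own centre, so slopes can be set against each other but heights cannot. Lines for Sqstm1, Optn, Nbr1, Tax1bp1 and Gabarapl1 descend from left to right and that of Map1lc3b ascends on all arrays. With median-centred arrays the mean ratios of Nbr1, Tax1bp1 and Gabarapl1 would be slightly below 0, although above 0 on replicate 2.

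The 5 genes of the ATG8 family, whose proteins are the membrane anchors that cargo receptors grip, did not move together, with 3 called higher and 2 lower. Gabarapl1 rose, with 15.29, 15.05 and 15.03 in treated cells against 14.09 on every array in untreated cells. The groups were far apart beside their spread, and the mean ratio was 1.03 ± 0.089 (limma adjusted p = 1.34e-05), or -0.02 with median-centred arrays. Map1lc3b fell, with 11.89, 11.99 and 11.74 in treated cells against 13.05, 13.01 and 13.15 in untreated cells. Its groups were also apart, with a mean ratio of -1.20 ± 0.096 (limma adjusted p = 8.83e-06). On each array the ratio of Gabarapl1 exceeded that of Map1lc3b, by 2.36, 1.99 and 2.34 log2 units on replicates 1, 2 and 3.

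Smaller differences were found in the rest of the family. Map1lc3a, which encodes LC3A, had 9.92, 10.11 and 10.17 in treated cells, against 9.44, 9.64 and 9.57 in untreated cells, with no overlap and a mean ratio of 0.52 ± 0.082 (limma adjusted p = 0.000501), which was -0.63 with median-centred arrays. Gabarap was at the edge of the test. Its ratios were 0.47, -0.04 and 0.44 on replicates 1, 2 and 3, so replicate 2 went the other way, and its levels overlapped between the groups. The mean of 0.29 ± 0.11 (limma adjusted p = 0.0465) lost its call without replicate 1 (0.20, adjusted p = 0.256) and without replicate 3 (0.22, adjusted p = 0.217), and was 0.45 without replicate 2 and -0.72 with median centring. Among further settings, the call was lost with no filter on dim probes (limma adjusted p = 0.0671) and in the authors' deposited log2 table (0.0511). Gabarapl2, known as GATE-16, was at -0.26 ± 0.092 (limma adjusted p = 0.0336), and lost its call without replicate 1 (-0.29, adjusted p = 0.0869), without replicate 2 (-0.16, adjusted p = 0.129) and with each array centred on the genes tested (-0.09, adjusted p = 0.437).

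**Figure D3:**
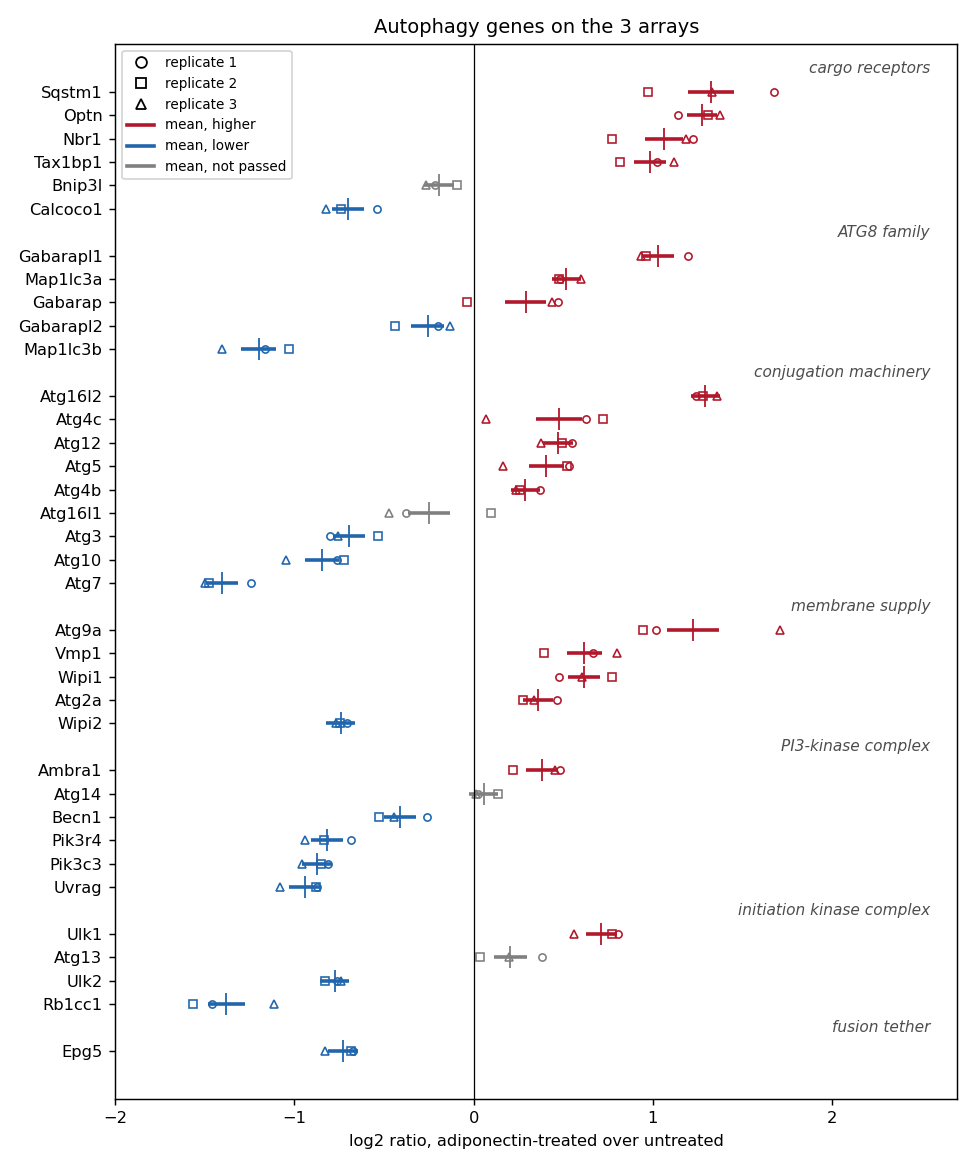
Each row is 1 of the 36 genes, grouped by role. Open symbols are the log2 ratios of treated over untreated cells on replicates 1 (circle), 2 (square) and 3 (triangle), and the cross shows the mean with its moderated SE, in red where called higher, blue where called lower and grey where the test was not passed. Receptors other than Bnip3l and Calcoco1 lie to the right, while, among others, Pik3c3, Pik3r4, Uvrag, Becn1, Rb1cc1, Ulk2, Atg7, Atg10, Atg3 and Map1lc3b lie to the left. With median-centred arrays the means shift to the left, and of the 18 red ones those of Sqstm1, Optn, Atg9a and Atg16l2 stay above 0, although replicate 2 keeps all 18 above 0 and replicate 1 keeps 0.

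In the conjugation machinery, the E1-like and E2-like enzymes fell and other members rose or did not pass. Of 9 members, 5 were called higher and 3 lower, and Atg16l1 did not pass. Atg7 encodes the E1-like enzyme that activates both ATG12 and the ATG8 proteins. Its brightest probe had 10.04, 9.89 and 9.82 in treated cells, against 11.28, 11.37 and 11.32 in untreated cells. The groups were apart by more than 1 log2 unit, with a mean ratio of -1.41 ± 0.089 (limma adjusted p = 2.36e-06), which was the lowest among the members. The dimmer probe of Atg7, for the same transcript, gave -0.42, -0.68 and -0.73.

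Both E2-like enzymes of the system were also lower. Atg3, which transfers ATG8 proteins to lipid, had ratios of -0.80, -0.53 and -0.75 on replicates 1, 2 and 3, with a mean of -0.70 ± 0.089 (limma adjusted p = 0.000139). Atg10, which transfers ATG12 to ATG5, had -0.76, -0.72 and -1.05, with a mean of -0.84 ± 0.094 (limma adjusted p = 6.09e-05), and its second probe gave -0.84 too. Neither gene had overlapping levels, and both stayed below the median of all genes with median centring, at -0.85 and -0.81 relative to it.

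Atg16l2 rose most in this group, although the ratios of its relative Atg16l1, which encodes the scaffold of the conjugation complex, were mixed. Atg16l2 had 9.94, 10.08 and 10.30 in treated cells, against 8.70, 8.80 and 8.95 in untreated cells. The values did not overlap, the mean ratio was 1.29 ± 0.081 (limma adjusted p = 2.23e-06) and the second probe gave 1.02. With median-centred arrays its mean was 0.16, or 1.19 relative to the median of all genes. The arrays then gave -0.30, 1.22 and -0.43 on replicates 1, 2 and 3. Atg16l1 had -0.38, 0.10 and -0.47 on replicates 1, 2 and 3, with a mean of -0.25 ± 0.12 (limma adjusted p = 0.0857). It passed without replicate 2, at -0.43 (limma adjusted p = 0.00334), and with array weights, at -0.33 (0.0152).

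Genes of the conjugated proteins and of the proteases that trim ATG8 proteins rose by less than Atg16l2. Atg5, the acceptor of ATG12, had 11.93, 11.98 and 11.75 in treated cells, against 11.40, 11.46 and 11.59 in untreated cells. The levels were apart, though replicate 3 gave a ratio of 0.16 against 0.53 and 0.52, and the mean was 0.41 ± 0.099 (limma adjusted p = 0.00587). Atg12 had a mean of 0.47 ± 0.083 on its brightest probe (limma adjusted p = 0.000963) and 1.16 on the other, so their mean was 0.81. Atg4c had ratios of 0.63, 0.72 and 0.07, a mean of 0.47 ± 0.13 (limma adjusted p = 0.00957) and overlapping levels. Atg4b was at 0.29 ± 0.082 (limma adjusted p = 0.0121), or 0.51 without the normexp offset and also in the log ratio of the scanner software, and its levels overlapped too. Without replicate 1, the calls of Atg5 (0.34, limma adjusted p = 0.0510), Atg4c (0.40, 0.0581) and Atg4b (0.25, 0.105) were lost, and these 3 genes and Atg12 were below 0 with median-centred arrays.

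Of 5 genes that supply and shape the membrane, 4 were called higher and Wipi2 lower. Atg9a encodes a lipid scramblase carried on small vesicles that seed the membrane. It had 9.12, 9.04 and 9.52 in treated cells, against 8.10, 8.09 and 7.81 in untreated cells. The levels were well apart, with the largest ratio on replicate 3 (1.71, against 1.02 and 0.95) and a mean of 1.23 ± 0.14 (limma adjusted p = 8.52e-05). Vmp1, a scramblase of the endoplasmic reticulum, had ratios of 0.67, 0.39 and 0.80 and a mean of 0.62 ± 0.099 (limma adjusted p = 0.000539). Atg2a, which encodes a lipid transfer protein that feeds the growing membrane, was at 0.36 ± 0.084 (limma adjusted p = 0.00454). Its value was 0.57 without the normexp offset and 0.60 in the log ratio of the scanner software, and its call was lost without replicate 1 (0.31, limma adjusted p = 0.0522). With median centring Atg9a was at 0.22, while Vmp1 and Atg2a turned to -0.46 and -0.76.

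The WIPI proteins read the lipid made by the phosphatidylinositol 3-kinase, and their genes went apart. Wipi1 had ratios of 0.48, 0.77 and 0.61 on replicates 1, 2 and 3, with a mean of 0.62 ± 0.090 (limma adjusted p = 0.000302), and its second probe gave 0.58. The levels of its brightest probe did not overlap, and the mean was -0.48 with median-centred arrays. Wipi2, whose protein recruits ATG16L1, had -0.71, -0.75 and -0.77 on its brightest probe, with a mean of -0.74 ± 0.080 (limma adjusted p = 4.86e-05). The other Wipi2 probe gave 0.19, 0.17 and 0.06. Among the 12 members with several measured probes, Wipi2 was the one with probes on opposite sides of 0, and the mean over its probes was -0.30.

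**Figure D4:**
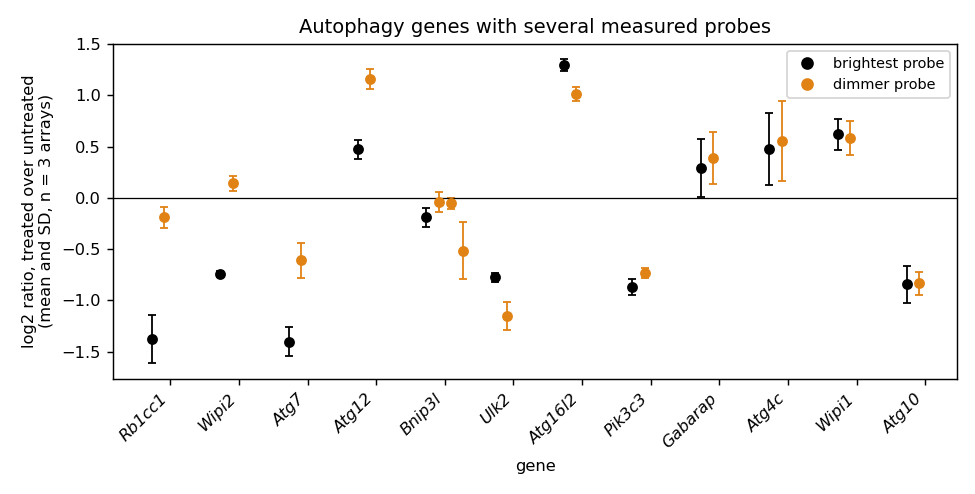
For the 12 members with more than 1 measured probe, points are the mean log2 ratio of treated over untreated cells for each probe and bars the SD over the 3 arrays, with the brightest probe in black and dimmer ones in orange. The probes of Rb1cc1, Wipi2, Atg7 and Atg12 differ by 0.69 to 1.19 log2 units, those of Atg10, Wipi1 and Atg4c by less than 0.1. With median-centred arrays the brightest-probe means of Atg12, Gabarap, Atg4c and Wipi1 lie below 0.

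The phosphatidylinositol 3-kinase complex fell in its shared core. Of 6 members, 4 were lower, Ambra1 was higher and Atg14 did not pass. Pik3c3, which encodes the catalytic subunit VPS34, had 8.15, 8.09 and 8.0 in treated cells, against 8.96, 8.94 and 8.96 in untreated cells. The groups were apart, with a mean ratio of -0.87 ± 0.082 (limma adjusted p = 2.22e-05) and -0.73 on the second probe. Pik3r4, which encodes its regulatory partner VPS15, had ratios of -0.68, -0.83 and -0.94, with a mean of -0.82 ± 0.087 (limma adjusted p = 4.68e-05).

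Becn1 encodes Beclin 1, the regulatory subunit that inhibitors such as BCL2 bind. It had 9.71, 9.55 and 9.46 in treated cells, against 9.97, 10.08 and 9.90 in untreated cells. These did not overlap, though the difference was small, at -0.41 ± 0.088 (limma adjusted p = 0.00293). Becn1 lost its call without the normexp offset (-0.28, limma adjusted p = 0.0669) and in the log ratio of the scanner software (-0.28, adjusted p = 0.0647), and was at -0.24 with each array centred on the genes tested.

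The subunits that send the lipid kinase to different membranes differed. Uvrag, the subunit of the complex on endosomes, had 12.48, 12.61 and 12.30 in treated cells, against 13.35, 13.49 and 13.38 in untreated cells. No values overlapped, and the mean ratio was -0.94 ± 0.086 (limma adjusted p = 1.86e-05). Atg14, the subunit of the complex that makes autophagosomes, had 9.32, 9.53 and 9.51 in treated cells, against 9.29, 9.39 and 9.50 in untreated cells. These overlapped, and the ratio of 0.06 ± 0.081 did not pass (limma adjusted p = 0.551), while with each array centred on the genes tested it was 0.23 (adjusted p = 0.0307) and with median centring -1.06. Ambra1, an activator of the Beclin 1 complex, was at 0.38 ± 0.089 (limma adjusted p = 0.00441), with ratios of 0.48, 0.22 and 0.45, and at -0.79 with median centring.

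In the initiation kinase complex, with 1 member higher, 2 lower and 1 not passed, the kinase genes went opposite ways. Ulk1 had 12.77, 12.62 and 12.54 in treated cells, against 11.96, 11.85 and 11.98 in untreated cells, with a mean ratio of 0.71 ± 0.088 (limma adjusted p = 0.000112). Its paralogue Ulk2 had 8.08, 7.95 and 8.20 in treated cells, against 8.84, 8.78 and 8.93 in untreated cells, with a mean ratio of -0.78 ± 0.080 (limma adjusted p = 3.89e-05) and -1.16 on its second probe. Neither overlapped between the groups. The ratio of Ulk1 exceeded that of Ulk2 by 1.57, 1.60 and 1.30 log2 units on replicates 1, 2 and 3, while with median centring the mean of Ulk1 was -0.43 and that of Ulk2 -1.75.

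Rb1cc1 encodes FIP200, the scaffold of the complex. Its brightest probe had 7.36, 7.0 and 7.61 in treated cells, against 8.82, 8.56 and 8.72 in untreated cells, with no overlap and a mean ratio of -1.38 ± 0.10 (limma adjusted p = 6.30e-06). The second probe of Rb1cc1, for the same transcript, gave -0.30, -0.09 and -0.18, and the mean over both was -0.79. Atg13, the subunit that links the kinase to FIP200, had ratios of 0.38, 0.03 and 0.20 and a mean of 0.20 ± 0.093 (limma adjusted p = 0.0795). It passed with each array centred on the genes tested (0.38, limma adjusted p = 0.00555), without replicate 2 (0.29, 0.0243) and with array weights (0.26, 0.0219), and was at -0.93 with median centring.

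Epg5, which encodes a tether that joins autophagosomes to late endosomes and lysosomes, had 8.12, 8.13 and 8.08 in treated cells, against 8.79, 8.82 and 8.90 in untreated cells. The values were tightly grouped and apart, with a mean ratio of -0.73 ± 0.083 (limma adjusted p = 6.89e-05).

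Of the other autophagy genes, a list of 52 outside the members, 51 were measured. In limma, 14 rose, 27 fell and 10 did not pass, with a median of -0.34, beside 24.5% higher and 46.1% lower over all genes. With median-centred arrays 11 of the 14 had a mean below 0, while all 14 lay above the median of all genes and 26 of the 27 below it. Among 14 genes of fusion and maturation, 2 rose and 8 fell. The SNAREs that fuse autophagosomes with lysosomes were split, since Stx17 fell by 1.36 ± 0.083 on the log2 scale (limma adjusted p = 1.94e-06), Snap29 rose by 1.30 ± 0.080 (2.11e-06) and Vamp8 was at 0.14. The tethering genes Tecpr1 (-1.59 ± 0.10, limma adjusted p = 2.96e-06) and Vps41 (-1.32 ± 0.088, 3.12e-06) fell by more than 2-fold. Among 18 genes of selective autophagy, 2 rose and 13 fell. The mitophagy kinase gene Pink1 was at -1.26 ± 0.087 (limma adjusted p = 3.77e-06), and Ccpg1, a receptor for the endoplasmic reticulum, at -1.26 ± 0.11 (1.47e-05). Of 13 further core genes, 6 rose and 5 fell, and Atg9b, the paralogue of Atg9a, rose by 1.12 ± 0.14 (limma adjusted p = 0.000152), with 0.63 on replicate 2 against 1.30 and 1.41.

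Of 6 transcription factor genes, 4 rose, 1 fell and 1 did not pass. They are named here after their values were seen. Tfeb, a master regulator of lysosome and autophagy genes, had ratios of 0.93, 0.94 and 0.97 on replicates 1, 2 and 3, with a mean of 0.95 ± 0.079 (limma adjusted p = 1.14e-05). Its relative Tfe3 was at -0.59 ± 0.091 (limma adjusted p = 0.000436), with all 3 ratios below 0. Foxo1 (0.86), Foxo3 (0.21) and the repressor gene Zkscan3 (0.30) were the others that rose, and Mitf (0.29) did not pass. With median-centred arrays, Tfeb was at -0.18, Foxo1 at -0.27 and Zkscan3 at -0.86, and Foxo3 stayed above 0 at 0.06.

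**Figure D5:**
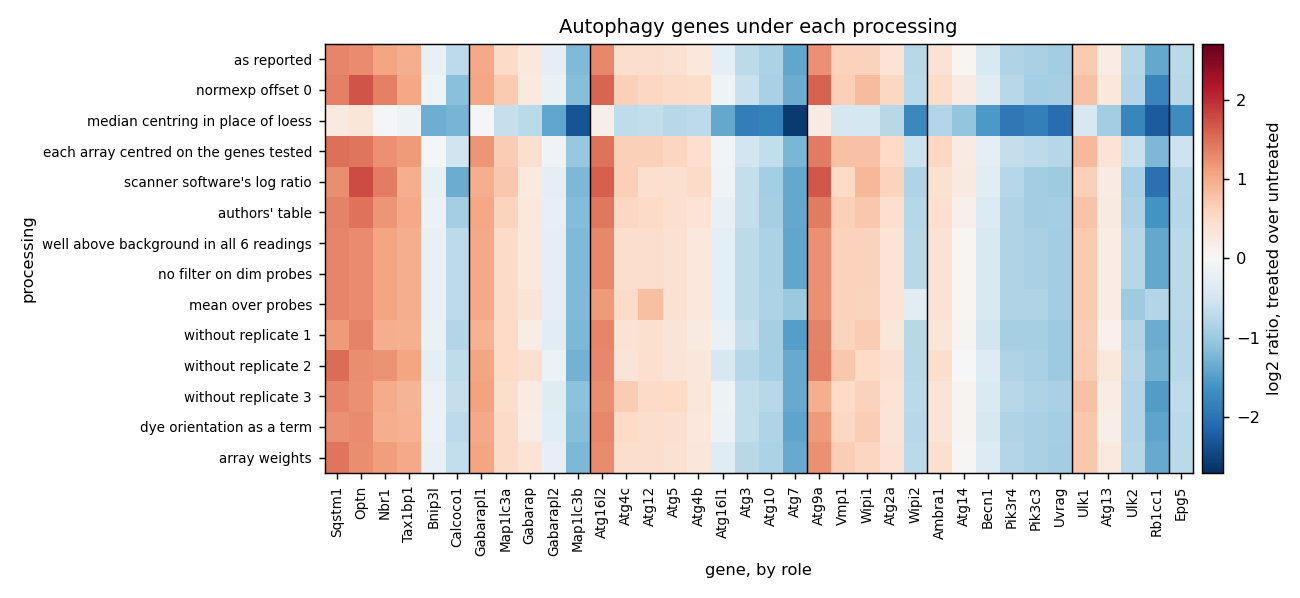
Rows are the processing settings and columns the 36 genes by role, coloured by the log2 ratio of treated over untreated cells (red above 0, blue below). The row for median-centred arrays stands apart, with the means of 16 genes on the other side of 0 from the values reported, while in the other rows no gene changed side.

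Cell identity was checked against lists of marker genes. All 7 measured macrophage markers of 8 listed were well above background in every channel. Of these 1 rose and 6 fell, and their summed level was 17.24 to 17.55 in treated cells, against 18.24 to 18.36 in untreated cells. The B cell marker Ms4a1, the erythroid markers Klf1 and Alas2, the T cell markers Cd3d and Cd8a, the dendritic cell marker Xcr1 and the fibroblast marker Pdgfra were not well above background in any channel. The B cell marker Cd79a and the fibroblast marker Col1a1 were well above background in 2 of 6 channel readings and were not tested. The summed level in treated and in untreated cells was 14.63 to 15.29 and 14.54 to 14.74 for 4 neutrophil markers, 15.42 to 15.58 and 15.10 to 15.34 for 3 dendritic cell markers, 11.10 to 11.26 and 10.92 to 11.12 for 2 T cell markers, and 8.71 to 8.88 and 8.25 to 8.42 for 3 fibroblast markers. Bright markers weigh most in such sums. Of the single markers in them, Elane (0.73), S100a8 (0.50), Zbtb46 (1.51), Cd3e (0.96), Dcn (0.79) and Col1a2 (0.35) were called higher. Mpo (-1.32) was called lower, and S100a9, Flt3, Siglech, Cd4 and Col3a1 did not pass. The part of these shifts in the results was not tested. Treated channels had 43.9% to 47.5% of probes well above background and untreated channels 53.4% to 54.3%, and no spot was saturated.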

How the data were processed

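Per the file headers, all 3 arrays shared 1 slide, and probe positions refer to mm9 (not used here). Spots were read with Agilent Feature Extraction 10.7.3.1, per the submitters' processing notes. The deposited intensity columns hold, per the file headers, the median brightness of each spot and of its background, unnormalized. The deposited processed intensity had background and dye bias removed by the scanner software, per the file headers, and the deposited log10 ratio is Cy5 over Cy3. The authors also deposited a log2 table, whose making the sources used here do not give. Across spots, its columns followed the loess ratios of treated over untreated cells (r = 0.986, 0.988 and 0.986 for replicates 1, 2 and 3), which gives its direction. Its medians were -0.00041, -0.0049 and -0.00064, and its background handling stays unknown.

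From the median signals, normexp (offset 50) and within-array loess (control spots at weight 0) were run in limma 3.58.1 under R 4.3.3. Outlier spots (299 to 323 an array) were dropped and repeated spots averaged. Accessions were matched to RefSeq symbols (GRCm38.p6), with 27235 of 55681 probes matching 1 symbol. Probes well above background in at least 3 of 6 channel readings were kept, and the brightest represented a gene. The ratios were tested against 0 with lmFit and eBayes (prior with 6.22 degrees of freedom, 2 residual) over 13179 genes. The number of arrays limits the precision.

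Every member is accounted for. Values by array are given for called members with an absolute log2 ratio of at least 0.5, for Ulk1, Becn1, Atg5, Atg7, Map1lc3b and Sqstm1, and for called members with probes on opposite sides of 0, with others added. Other autophagy genes are named when called at an absolute ratio of at least 1, apart from the exceptions given, Vamp8 being named beside its SNARE partners. Members and lists were chosen with earlier results of these data known. Alternatives covered background correction, normalization, source of the values, probe filter, probes of a gene, left-out replicates, a dye term and array weights.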

Additional observations from a re-analysis of the deposited data

How the results depend on the processing

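With median centring of each array in place of loess, limma called 0 genes higher and 0 lower, among the members, the other autophagy genes and all genes alike, with 14 members and 5314 of all genes at an unadjusted p under 0.05. The members' median was then -0.86, and the means of 16 members changed side of 0, although replicate 2 kept all 18 called higher above 0: Ulk1 (-0.43), Atg13 (-0.93), Atg14 (-1.06), Ambra1 (-0.79), Atg2a (-0.76), Vmp1 (-0.46), Wipi1 (-0.48), Atg4b (-0.71), Atg4c (-0.69), Atg5 (-0.76), Atg12 (-0.66), Map1lc3a (-0.63), Gabarap (-0.72), Gabarapl1 (-0.023), Nbr1 (-0.027) and Tax1bp1 (-0.13). The cause was not tested. With each array centred on the genes tested the members' median was 0.42. Outside median centring, no member changed side of 0 under the alternatives run. Becn1, Gabarap and Gabarapl2 lost their calls both without the normexp offset and in the log ratio of the scanner software. Calls were also lost for 2 in the authors' deposited table, and for 6, 1 and 1 without replicates 1, 2 and 3. Gabarap lost its call with no filter on dim probes, and Gabarapl2 with each array centred on the genes tested. Leaving out 1 replicate gave 13 to 19 members higher and 13 to 15 lower, with medians of 0.16 to 0.30. The rule requiring all 6 channel readings above background and the fit with dye orientation (1 residual degree of freedom) changed no member's call. The ratio of each array pairs its treated and untreated RNA, so the test reported is the paired one. A block for the slide could not be fitted, since all arrays lay on 1 slide. The alternatives for all genes were added after seeing the data.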

Other observations

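Among genes of the HOPS complex, which tethers autophagosomes and late endosomes to lysosomes, subunits went different ways. These genes were picked after their values were seen. Vps18 had ratios of 1.15, 0.68 and 1.02 on replicates 1, 2 and 3 (mean 0.95, limma adjusted p = 5.89e-05), and was at -0.17 with median-centred arrays. Vps16 (-0.81), Vps33a (-0.66), Vps39 (-0.57) and Vps41 (-1.32) all fell in limma, and Vps11 (0.14) did not pass. Keap1, whose protein p62 binds, was at -0.57 ± 0.12 (SE; limma adjusted p = 0.00282), with -0.23 on replicate 1 against -0.86 and -0.61.

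The difference between dye orientations passed the limma threshold for 0 of the 36 members and for 45 of the 13179 genes tested, which is 0.341%. With 1 array in the opposite orientation, a dye effect and the deviation of replicate 2 cannot be told apart. The fit with dye orientation was run after loess and left 1 residual degree of freedom. A count of 0 therefore does not show that dye effects were absent.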
